A study of Homo sapiens with 6 samples.

Results

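EGOT is a long noncoding RNA gene on the short arm of chromosome 3, in band 3p26, and the genes considered here are EGOT and 9 neighbours on that arm: SUMF1, CNTN4, CNTN6, CRBN, TRNT1, LRRN1, SETMAR, BHLHE40 and EDEM1. Members were chosen by name, and each was read at the probe set with the highest mean over the 6 arrays. Of the 10 genes, 6 carried a named probe set (EGOT, SUMF1, LRRN1, CRBN, CNTN4 and CNTN6), 1 each, out of 14812 named genes in all. TRNT1, SETMAR, BHLHE40 and EDEM1 were not analysed here, nor was ITPR1, the host gene of EGOT. The arrays came from HuH7 cells, a human hepatoma line. There were 3 arrays of cells given 50 pmol of a gapmer against EGOT and 3 of cells given 50 pmol of a control gapmer. In both groups the cells were also given a PKR expression plasmid and poly I:C, and RNA was taken 36 hours later. PKR is a kinase that senses double-stranded RNA, and poly I:C is a synthetic form of such RNA. The design has 1 gapmer against EGOT, 1 cell line, and PKR and poly I:C in every sample. The labels do not say whether replicates were separate cultures, so each p-value reflects only how far these samples vary, and that variation may be technical.

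Long noncoding RNAs can act on genes beside the site where they are made (in cis) or on genes elsewhere (in trans). Gapmers pair with a complementary RNA through a stretch of DNA flanked by modified bases, and RNase H then cleaves that RNA, also in the nucleus, where nascent transcripts lie. EGOT, named after eosinophil granule development, is transcribed from within an intron of ITPR1, which encodes a calcium channel of the endoplasmic reticulum, and it is known to be induced by viral RNA. The question is whether depletion of EGOT is accompanied by changes in the genes around its locus.

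In the RefSeq gene table of assembly GRCh38.p14 the order from the end of the short arm is CNTN6, CNTN4, TRNT1, CRBN, LRRN1, SUMF1, SETMAR, ITPR1, EGOT, BHLHE40 and EDEM1. EGOT lies within the span of ITPR1 and on the opposite strand. SETMAR lies within SUMF1, also on the opposite strand, and TRNT1 overlaps CRBN. Ordered by the coordinate nearer the end of the short arm, 8 other genes come between SUMF1 and EGOT. SETMAR, inside SUMF1, and ITPR1, the host of EGOT, are among them. The nearest measured neighbour on that side is thus not the next gene in that order. The sequences that the oligonucleotides target, per the labels' protocols, are shown here because they define the comparison.
EGOT gapmer target: AGAGACACTTAGAAGA
Control gapmer target: AACACGTCTATACGC
The EGOT target has 16 bases, 6 of them G or C, and the control target has 15 bases, 7 of them G or C. Capitals mark the bases listed in the protocols, and pairing of either sequence with a transcript was not analysed here. Where the target lies in EGOT, relative to the bases its probe set reads, was not analysed here. Neither target nor its reverse complement occurred in any of 35116 RefSeq promoter windows of 300 bases (250 before and 50 after a gene's start).

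The start region of EGOT is shown because it was the one member window with a match to a known NF-kB motif, a factor that double-stranded RNA activates. The window is chr3:4751541-4751840 in GRCh38.p14, minus strand, from RefSeq, and capitals mark the match, whose letters are the reverse complement of the motif searched.
EGOT start region: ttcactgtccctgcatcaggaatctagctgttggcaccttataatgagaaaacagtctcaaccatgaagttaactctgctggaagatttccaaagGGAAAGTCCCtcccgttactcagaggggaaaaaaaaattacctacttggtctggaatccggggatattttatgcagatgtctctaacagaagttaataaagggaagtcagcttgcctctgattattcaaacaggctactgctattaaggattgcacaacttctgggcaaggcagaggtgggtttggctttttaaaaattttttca
The match begins 155 bases before the start of EGOT. Of the 35116 windows, 67 (0.191%) held this motif on either strand. The 250 bases before the start of SUMF1, the neighbour that fell, are shown for comparison, as chr3:4467270-4467519 on the minus strand of the same build, with the E-box CACGTG in capitals.
SUMF1 start region: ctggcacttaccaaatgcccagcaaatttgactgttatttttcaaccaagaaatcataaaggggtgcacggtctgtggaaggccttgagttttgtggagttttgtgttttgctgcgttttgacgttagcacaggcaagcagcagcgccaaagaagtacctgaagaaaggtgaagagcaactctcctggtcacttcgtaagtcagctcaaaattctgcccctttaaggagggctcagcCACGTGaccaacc
The E-box begins 13 bases before the start of SUMF1, and CACGTG was in the 250 upstream bases of 6.34% of windows. It reads the same on both strands. The window of BHLHE40 held a CACGTG too, beginning 245 bases before its start. No window of the 9 neighbours held the NF-kB motif. Searched in the same way on both strands, TGACGTCA had a match in the window of TRNT1, TATAAA had 2 in one of the windows of CNTN4, and the interferon response core had none in any member. In the 250 upstream bases of all windows their shares were 1.65%, 10.7% and 3.02%. These matches describe letters only, and all 6 arrays had poly I:C, so induction through either motif was not measured.

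EGOT fell with its gapmer, and the fall was the largest change in size among the 14812 named genes. The EGOT gapmer arrays read 4.91, 4.90 and 4.69 on the log2 scale, against 6.29, 6.79 and 6.71 in the control gapmer arrays. All 3 EGOT gapmer arrays were lower than every control gapmer array, with a gap of 1.38 between the groups. The means were 4.83 ± 0.126 with the EGOT gapmer and 6.59 ± 0.269 with the control gapmer (SD, n = 3 each). The log2 difference was -1.76 with a 95% interval of -2.10 to -1.43, which leaves 29.5% of the control gapmer level (limma adjusted p = 0.00760). By adjusted p EGOT ranked 8 of the 14812. With 20 ways to assign the 6 arrays to groups, an exact two-sided permutation test gave p = 0.1, the smallest that 3 arrays against 3 allow. The SD of EGOT among the control gapmer arrays was above that of 93.6% of genes. In a bulk sample, fewer cells that express a gene and less RNA per cell cannot be told apart.

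**Figure D1:**
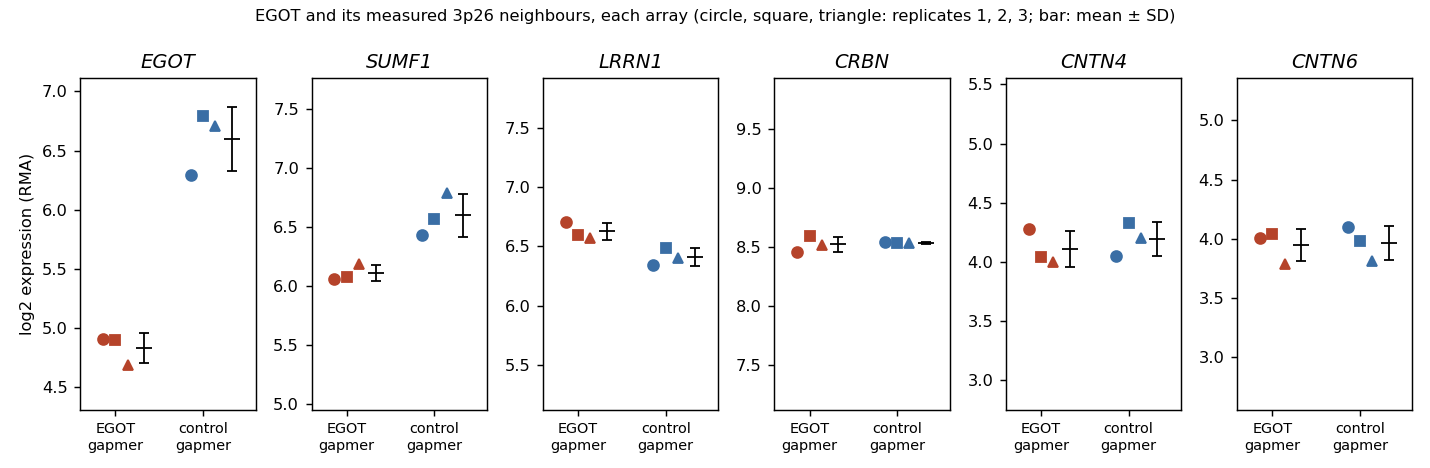
Log2 expression of EGOT and its 5 measured neighbours in each array, EGOT gapmer at left and control gapmer at right in each panel, with every panel spanning the same range of log2 units; bars are mean ± SD (n = 3). EGOT and SUMF1 were lower in all 3 EGOT gapmer arrays, LRRN1 was higher in all 3, and the groups overlapped for CRBN, CNTN4 and CNTN6.

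Of the 5 measured neighbours, SUMF1 fell, 0 rose and 4 did not pass the threshold of 0.05 on the adjusted p (limma, Benjamini-Hochberg over all 14812 genes). Over all genes 8.41% passed, 5.20% higher and 3.21% lower, so 1 call among 5 genes is a small count to read against that background. The log2 difference was below 0 in 4 of the 5 neighbours, as it was in 42.2% of all genes. The median log2 difference of the 5 neighbours was -0.02, beside 0.04 for all genes. The groups did not overlap in 2 of the 5, SUMF1 (lower) and LRRN1 (higher), where 31.7% of all genes did not overlap, 11.5% lower and 20.2% higher. The calls over all genes were 770 higher and 475 lower in the values as deposited, 679 and 674 after another quantile normalization, and 644 and 677 after cyclic loess. Without EGOT gapmer replicates 1, 2 and 3 there were 579, 505 and 156 calls, and without control gapmer replicates 1, 2 and 3 there were 58, 9 and 34. EGOT gapmer replicate 2 had the lowest array weight, 0.5, where the others had 0.888 to 1.42.

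SUMF1 encodes the formylglycine-generating enzyme of the endoplasmic reticulum, which activates sulfatases, and its loss causes multiple sulfatase deficiency. Its log2 level was 6.06, 6.08 and 6.19 in the EGOT gapmer arrays and 6.43, 6.57 and 6.79 in the control gapmer arrays. All 3 EGOT gapmer values lay below all 3 control gapmer values, though the gap of 0.24 was smaller than the spread of 0.37 within the control gapmer arrays. The means were 6.11 ± 0.0717 and 6.60 ± 0.185 (SD, n = 3 each) with the EGOT gapmer and the control gapmer. The log2 difference was -0.49 with a 95% interval of -0.73 to -0.24, or 71.4% of the control gapmer level (limma adjusted p = 0.0380). Among all genes 231 had a lower log2 difference, 183 of them past the threshold. SUMF1 passed in 8 of 17 alternatives and kept its sign in 17. It did not pass without any 1 of the 6 arrays, with log2 differences of -0.57 to -0.39 and adjusted p-values of 0.0676 to 0.115 (limma). Without EGOT gapmer replicate 2 it was at -0.47 (limma adjusted p = 0.0904).

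LRRN1, which encodes a leucine-rich repeat transmembrane protein of the developing nervous system, had levels of 6.71, 6.60 and 6.57 with the EGOT gapmer and 6.34, 6.49 and 6.40 with the control gapmer. The EGOT gapmer arrays were all higher, by a gap of 0.09, which was less than the spread within either group. Its log2 difference of 0.22, with a 95% interval of 0.04 to 0.40, did not pass over all genes (limma adjusted p = 0.129). It passed in 1 of 17 alternatives, the test of brighter genes alone (limma adjusted p = 0.0310), where 34.4% of the 7406 genes tested passed. CRBN encodes cereblon, the substrate receptor of a CUL4 ubiquitin ligase and the target of thalidomide. It was the brightest neighbour, brighter than most genes, with levels of 8.46, 8.59 and 8.52 in the EGOT gapmer arrays and 8.54, 8.53 and 8.53 in the control gapmer arrays. The EGOT gapmer values lay on both sides of the control gapmer values. Its log2 difference was -0.01, with a 95% interval of -0.17 to 0.15, which bounds a change at 0.89-fold to 1.11-fold (limma adjusted p = 0.961).

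CNTN4 and CNTN6 encode contactins, adhesion proteins of axons anchored in the membrane by a lipid. Both were dim, with mean levels at the 13.7th and 11.2th percentile of all genes, levels at which a change could be missed. CNTN4 read 4.28, 4.04 and 4.0 with the EGOT gapmer and 4.05, 4.33 and 4.20 with the control gapmer. CNTN6 read 4.01, 4.04 and 3.79 with the EGOT gapmer and 4.10, 3.98 and 3.81 with the control gapmer. The groups overlapped in both genes. The log2 difference was -0.09 for CNTN4 (95% interval -0.34 to 0.17, limma adjusted p = 0.684) and -0.02 for CNTN6 (95% interval -0.27 to 0.23, limma adjusted p = 0.937).

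Defined by gene order alone, the 10 nearest measured genes on each side of EGOT held 17 genes, because only 7 lie between EGOT and the end of the short arm. Of the 17, SUMF1 fell, 0 rose and 16 did not pass, or 5.88% called, beside 8.41% of all genes. The median log2 difference was -0.01. On the side away from the chromosome end 0 of 10 passed (limma), with 3 at an unadjusted p under 0.05, which 25.0% of all genes reached. The nearest measured gene there was BHLHE40-AS1, a noncoding RNA transcribed from beside BHLHE40. It read 4.21, 4.99 and 4.43 with the EGOT gapmer and 4.47, 4.51 and 4.83 with the control gapmer, and the groups overlapped. Its log2 difference was -0.06 with a wide 95% interval of -0.54 to 0.42 (limma adjusted p = 0.894). OXTR, the oxytocin receptor gene, and THUMPD3, which encodes a tRNA methyltransferase, had the smallest p-values on that side without passing, and were named for that after their values were seen. The difference on the log2 scale was -0.26 for OXTR (limma adjusted p = 0.0988). For THUMPD3 it was 0.29 (limma adjusted p = 0.115).

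**Figure D2:**
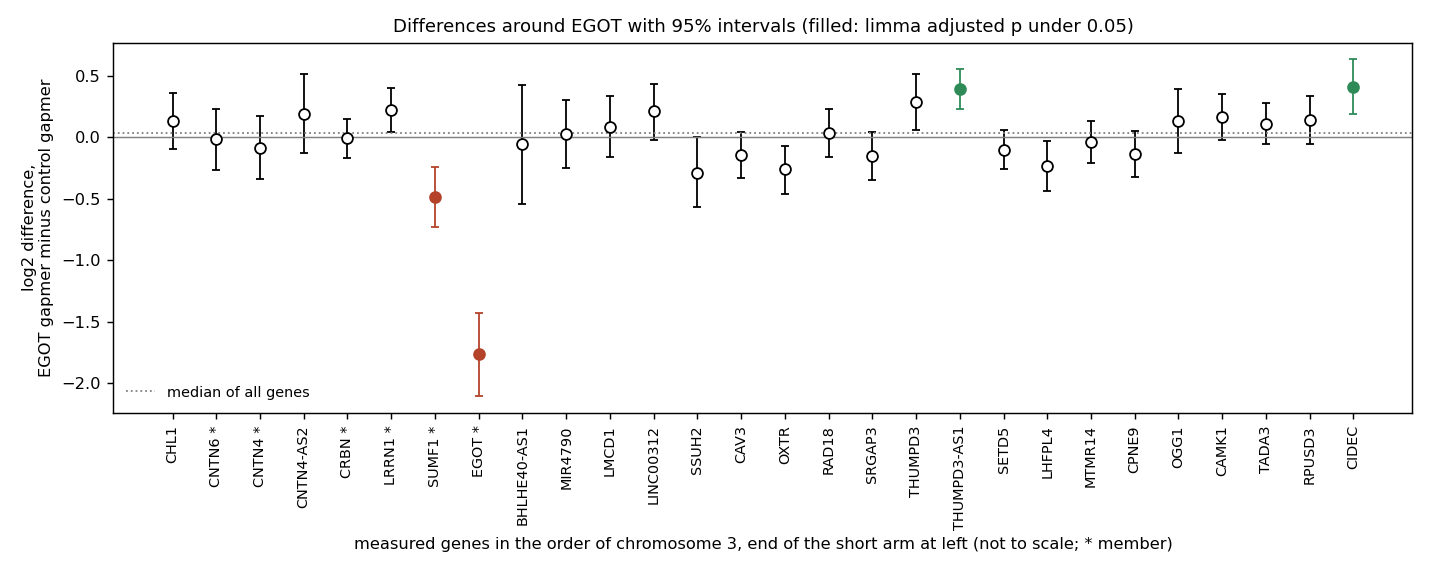
Log2 difference, EGOT gapmer minus control gapmer, with 95% intervals for EGOT and the 27 nearest measured genes in the order of chromosome 3, evenly spaced and not to scale; filled points have a limma adjusted p under 0.05. EGOT at -1.76 and SUMF1 at -0.49 were the lowest, and BHLHE40-AS1 on the other side of EGOT was at -0.06.

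With 20 measured genes taken on each side (27 in all) there were 3 calls, or 11.1%. The further ones were THUMPD3-AS1, a noncoding RNA antisense to THUMPD3, at 0.39 (limma adjusted p = 0.0234), and CIDEC, a lipid droplet protein gene, at 0.41 (limma adjusted p = 0.0440), both higher and named after their values were seen. With the trend on gene span described below removed, THUMPD3-AS1 passed at 0.30 (limma adjusted p = 0.0438) and CIDEC did not, at 0.32 (limma adjusted p = 0.0745). CIDEC did not pass without any 1 of the 6 arrays (limma adjusted p = 0.0601 to 0.142) or with a variance trend (limma adjusted p = 0.0633). THUMPD3-AS1 passed without EGOT gapmer replicate 1 (limma adjusted p = 0.0470) and not without any 1 of the other 5 arrays (limma adjusted p = 0.0527 to 0.0934). On the whole of chromosome 3, 82 of 831 other measured genes passed (9.87%), 49 higher and 33 lower, or 41 and 49 after another quantile normalization and 37 and 49 after cyclic loess. Without EGOT gapmer replicates 1, 2 and 3 the count was 43, 41 and 16, and without control gapmer replicates 1, 2 and 3 it was 6, 1 and 3. Taken as 30 stretches of 27 measured genes, the chromosome had stretch medians from -0.14 to 0.15. The stretch next to EGOT was at 0.02, with 14 stretches lower. It held 3 calls, where 14 stretches had fewer, 8 in all had 3 and the highest had 6.

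**Figure D3:**
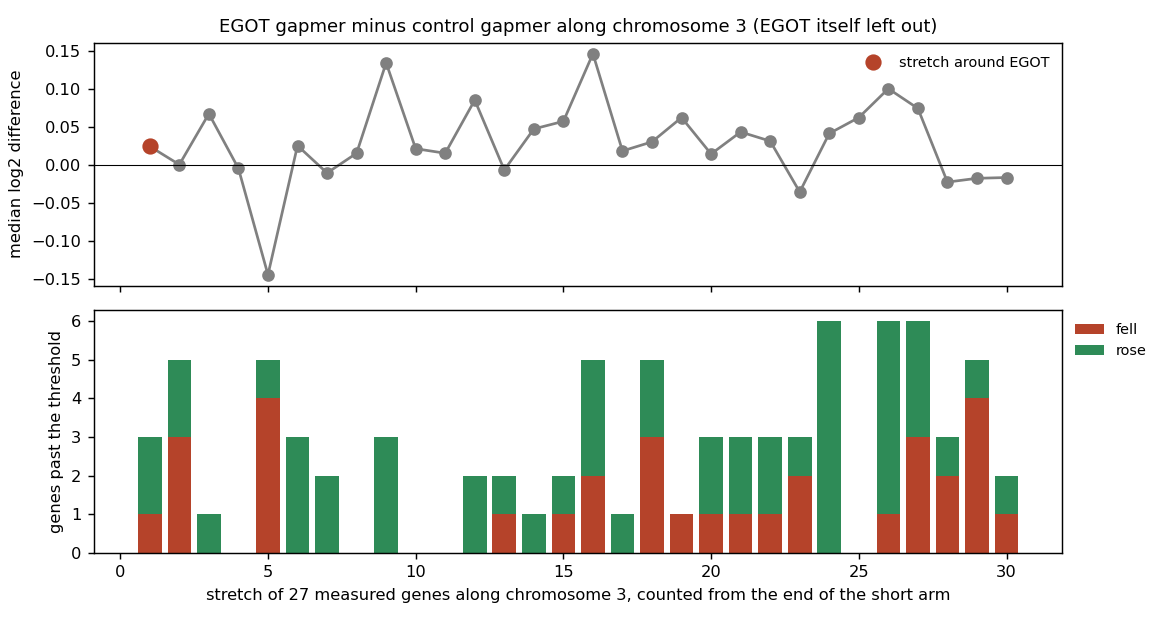
Median log2 difference, EGOT gapmer minus control gapmer (top), and genes with a limma adjusted p under 0.05 (bottom) in 30 consecutive stretches of 27 measured genes along chromosome 3, counted from the end of the short arm, with EGOT left out. The stretch around EGOT, at 0.02 with 3 calls, lies inside the range of the others, -0.14 to 0.15 and 0 to 6 calls.

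The length of a gene moved with its difference, and SUMF1, CNTN4 and CNTN6 are long genes. Among protein-coding genes that span under 10 kb, 0.839% fell and 8.79% rose, with a median log2 difference of 0.08 over 2979 genes. Among the 491 that span over 300 kb, 20.8% fell and 0.611% rose, with a median of -0.13. The 262 short genes that rose became 149, 104 and 33 without EGOT gapmer replicates 1, 2 and 3, and 8, 2 and 10 without control gapmer replicates 1, 2 and 3. In the same order the 102 long genes that fell became 47, 63 and 28, and 17, 0 and 5. The medians without 1 array stayed between 0.06 and 0.10 for the short genes and between -0.18 and -0.10 for the long ones. SUMF1 spans 432.8 kb, CNTN4 959.1 kb and CNTN6 311.2 kb, whereas LRRN1 spans 50.4 kb and CRBN 30.1 kb. In mean level SUMF1 was at the 53.6th percentile of all genes. The brighter genes over 300 kb reached the 99.9th, so they are not matched to SUMF1 in brightness. Of 199 genes over 300 kb whose mean was above the median of all gene means, as that of SUMF1 was, 87 fell (43.7%) and 2 rose. Their median was -0.31, and 43 of them had a lower log2 difference than SUMF1. Leaving out any 1 array kept that median between -0.34 and -0.28, while the number that fell was 44, 59 and 27 without EGOT gapmer replicates 1, 2 and 3 and 16, 0 and 5 without control gapmer replicates 1, 2 and 3. Of the 292 dimmer genes over 300 kb, such as CNTN4 and CNTN6, 15 fell and the median was -0.04.

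With the trend of each array on gene span removed, 0 of the 5 neighbours passed (limma), beside 4.81% of all genes. Of the 5, 2 had an unadjusted p under 0.05, as did 3505 of 14811 genes. SUMF1 was then at -0.32 (limma adjusted p = 0.130) and LRRN1 at 0.19 (limma adjusted p = 0.207). CNTN4 changed sign to 0.14 (limma adjusted p = 0.491) and so did CNTN6, at 0.12 (limma adjusted p = 0.548), and CRBN was at -0.07 (limma adjusted p = 0.530). The trend removed was 1 per array, for bright and dim genes alike. After it the 199 brighter genes over 300 kb had a median of -0.14, with 32 lower and 3 higher (limma). All 491 over 300 kb had a median of 0.05. The values of SUMF1, CNTN4 and CNTN6 are thus not free of span at their own brightness. EGOT, which spans 2.4 kb, was at -1.84 and passed (limma adjusted p = 0.00775).

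**Figure D4:**
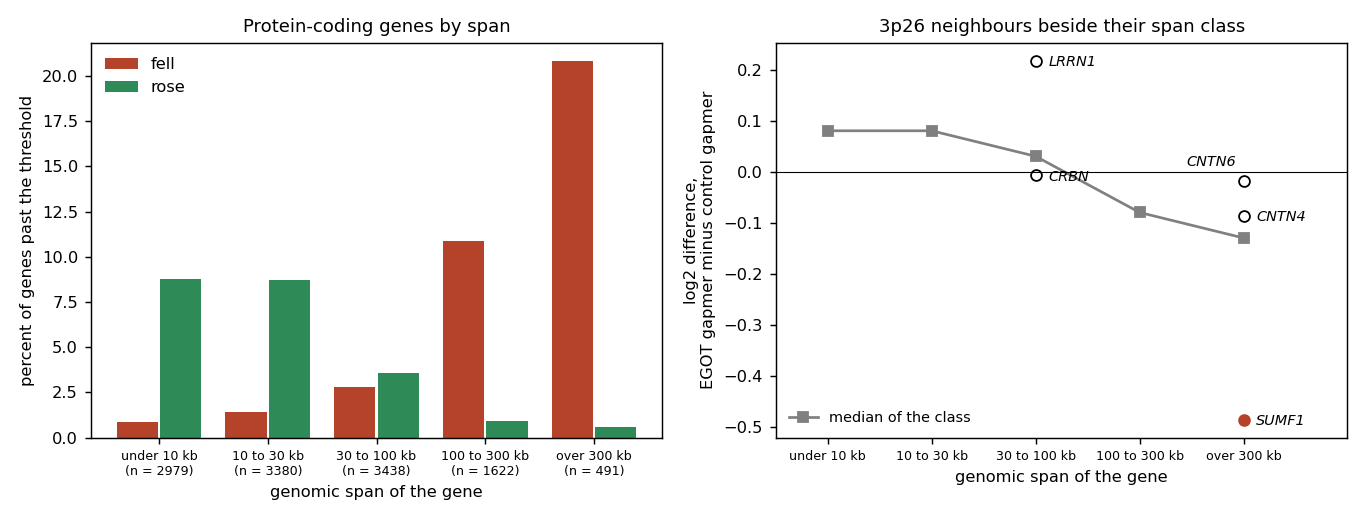
Left, percent of protein-coding genes that fell or rose (limma adjusted p under 0.05) in 5 classes of genomic span; right, the log2 difference, EGOT gapmer minus control gapmer, of the 5 measured neighbours beside the median of their class. The share that fell was 20.8% over 300 kb and 0.839% under 10 kb, and SUMF1 at -0.49 lay below its class median of -0.13.

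**Figure D5:**
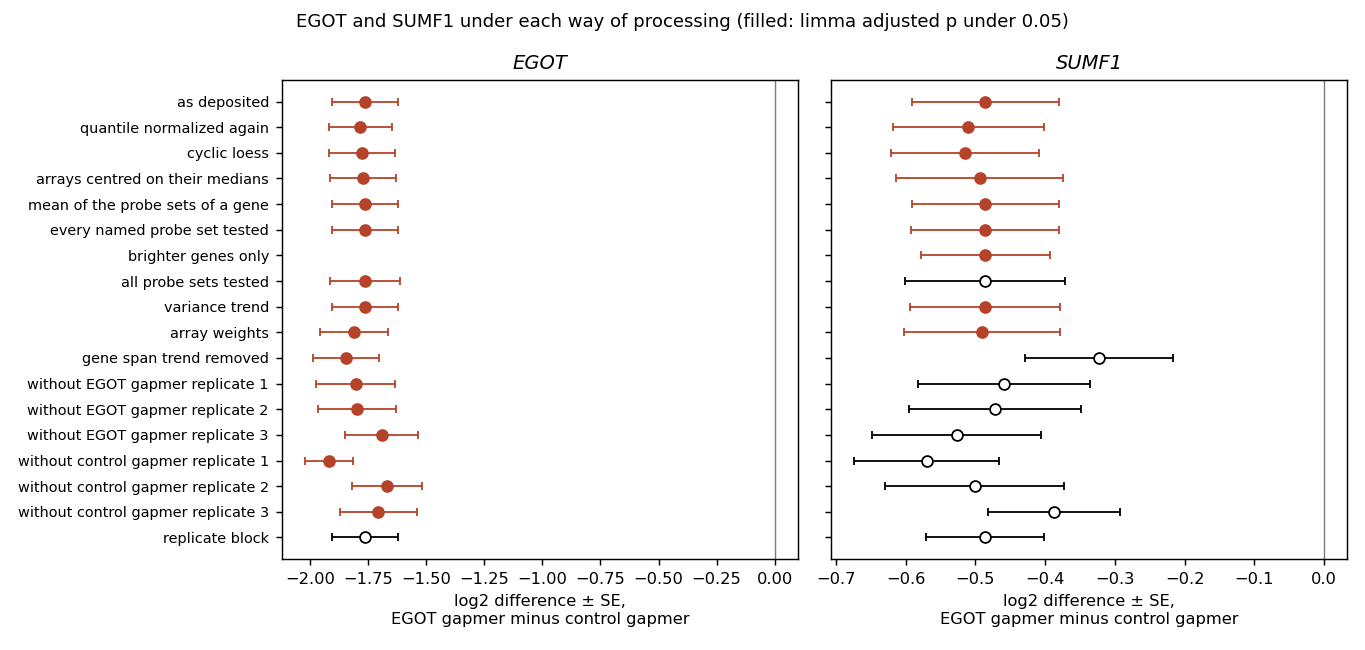
Log2 difference ± SE, EGOT gapmer minus control gapmer, of EGOT (left) and SUMF1 (right) under each way of processing, with filled points at a limma adjusted p under 0.05; EGOT was below the brightness limit and has no point among the brighter genes only. EGOT kept a difference between -1.92 and -1.67, and SUMF1 one between -0.57 and -0.32 that passed in 8 of 17.

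The genes that work with the neighbours were read from lists by role. Of 12 measured sulfatases and the SUMF1 paralog SUMF2, 0 passed (limma) and 0 had an unadjusted p under 0.05, with log2 differences of -0.17 to 0.18 and a median of -0.04. SGSH, a lysosomal sulfatase that degrades heparan sulfate, had the smallest p, at -0.17 (limma adjusted p = 0.213). SUMF2 itself was at -0.03 (limma adjusted p = 0.804). Of 15 measured genes of the contactin and related adhesion list, 2 fell and 0 rose (13.3% called, median -0.09, or 0.02 with the span trend removed). Of all genes 8.41% were called, 3.21% lower, so 2 of 15 is a small count beside that share. CNTNAP1, a contactin-associated protein of myelinated axons, fell by 0.52 (limma adjusted p = 0.0174), with 6.00, 6.02 and 5.95 in the EGOT gapmer arrays and 6.38, 6.60 and 6.53 in the control gapmer arrays. CNTNAP2, which spans 2304.2 kb, fell by 0.49 (limma adjusted p = 0.0336) and was at -0.19 with the span trend removed (limma adjusted p = 0.312), whereas CNTNAP1, at -0.60, still passed (limma adjusted p = 0.0203). Without EGOT gapmer replicate 1 or 2 the list had 1 call, and without EGOT gapmer replicate 3 or control gapmer replicate 1, 2 or 3 it had 0.

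Of 10 measured genes of the cereblon ligase and its substrates 0 passed (limma) and 4 had an unadjusted p under 0.05, with a median of 0.11. Of all genes 25.0% had an unadjusted p under 0.05. GSPT1, a translation termination factor that cereblon degrades in the presence of some drugs, was at 0.33 and just missed the threshold (limma adjusted p = 0.0501). Of 13 measured genes of tRNA end processing, the pathway of TRNT1, 5 rose and 0 fell, or 38.5% called, with a median of 0.28. Of all genes 8.41% were called, 5.20% higher, and their median was 0.04. The 5 that rose included the RNase P subunit genes RPP25, at 0.47 (limma adjusted p = 0.0230), RPP30, at 0.39 (limma adjusted p = 0.0305), and RPP38, at 0.28 (limma adjusted p = 0.0453). The others were TRMT10C, at 0.40 (limma adjusted p = 0.0399), and HSD17B10, at 0.34 (limma adjusted p = 0.0478), which encode subunits of mitochondrial RNase P. Of the 8 that did not pass, PRORP was at 0.02 (limma adjusted p = 0.879) and DIS3L2 at -0.25 (limma adjusted p = 0.0681). The log2 difference was below 0 in 3 of the 13. HSD17B10, PRORP and DIS3L2 were named after their values were seen. RPP25 read 6.38, 6.33 and 6.21 in the EGOT gapmer arrays and 5.88, 5.89 and 5.75 in the control gapmer arrays, and the groups did not overlap. In this list 2 rose with the span trend removed, 3 rose and 1 fell after another quantile normalization or cyclic loess, 2 rose without EGOT gapmer replicate 1, and 0 passed without any 1 of the other 5 arrays, while the median stayed between 0.19 and 0.34 in these fits. All but 1 of the 13 had a mean above the median of gene means. With brighter genes only, 6 of 12 rose and 1 fell, where 34.4% of the genes tested passed (limma). With a variance trend 6 of 13 rose and 1 fell, where 17.0% of all genes passed (limma). TRNT1 itself was not analysed here.

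Of 12 measured clock genes, the loop in which BHLHE40 acts as a repressor at E-boxes, 1 rose and 1 fell (median 0.05). That is 16.7% called, where 8.41% of all genes were called, 5.20% higher and 3.21% lower, with a median of 0.04. Such small counts say little beside that share. DBP, a clock output factor, rose by 0.39 (limma adjusted p = 0.0365) and NPAS2, a partner of BMAL1, fell by 0.46 (limma adjusted p = 0.0336). After another quantile normalization or cyclic loess 1 fell and 0 rose. With the span trend removed neither passed, with DBP at 0.30 (limma adjusted p = 0.0953) and NPAS2 at -0.37 (limma adjusted p = 0.0905). The list had 1 call, NPAS2, without EGOT gapmer replicate 1 and 0 without any 1 of the other 5 arrays. Of 10 measured partners of EDEM1, which delivers misfolded glycoproteins for degradation, 0 passed (limma) and 2 had an unadjusted p under 0.05, with a median of 0.04. DERL2, of the retrotranslocation machinery, was at 0.21 (limma adjusted p = 0.109). Of 6 measured end-joining genes, the pathway of SETMAR, 0 passed (limma) and 3 had an unadjusted p under 0.05, with a median of 0.16, and PRPF19 was at 0.27 (limma adjusted p = 0.0548). Of 8 measured LRRN and related genes 0 passed (limma) and 1 had an unadjusted p under 0.05, with LRRN3 at 0.44 (limma adjusted p = 0.114). For these lists too, the share of all genes with an unadjusted p under 0.05 was 25.0%. With a variance trend 3 cereblon ligase genes, 3 end-joining genes and 2 partners of EDEM1 rose, where 2513 of all genes (17.0%) passed. With brighter genes only the counts of these lists were also 3 of 7, 3 of 5 and 2 of 9 measured. There 34.4% of the 7406 genes tested passed. The sulfatase list had 0 calls in both, and the LRRN list 0 with a variance trend (limma), with 1 in each case at an unadjusted p under 0.05.

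Over the 6 arrays the genes whose levels followed EGOT most closely, among 7406 genes brighter than the median, were SAMD4A, GOLGA4 and CNTNAP1 (Pearson r = 0.997 each) and MYOF and GLIPR1 (r = 0.995 each). DANCR, a long noncoding RNA (r = -0.998), the replication licensing gene MCM2 (r = -0.997) and the mitochondrial import gene TIMM17B (r = -0.996) ran most opposite. The arrays fall into 2 groups that differ in EGOT, so such values mostly restate the group difference, and 335 genes had r above 0.95. SUMF1 had r = 0.924, LRRN1 -0.797, CNTN4 0.474, CRBN 0.090 and CNTN6 0.044.

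The cells carried hepatoma markers at high levels. The median over 10 measured markers such as ALB and AFP was 12.37 with the EGOT gapmer and 12.36 with the control gapmer. Of the 10, 2 rose, TM4SF4 by 0.44 (limma adjusted p = 0.0387) and APOA1 by 0.36 (limma adjusted p = 0.0406), where 5.20% of all genes rose. The log2 difference was below 0 in 5 of the 10 and above 0 in 5. GPC3, at -0.24 (limma adjusted p = 0.0855), and APOB, at -0.18 (limma adjusted p = 0.124), did not pass, though their groups did not overlap. They were named after their values were seen. Among the 10, every EGOT gapmer array was lower than every control gapmer array in 3 genes, and higher in 3. Over all genes these shares were 11.5% and 20.2%. After another quantile normalization, cyclic loess or removal of the span trend, and without any 1 of the 6 arrays, 0 of the 10 passed (limma). With brighter genes only 2 rose and 2 fell, and with a variance trend 2 rose and 3 fell. In those fits 34.4% and 17.0% of all genes tested passed. All 3 measured eosinophil markers, relevant to the cell type EGOT is named for, were dim, with a mean over the list of 3.84 to 4.48 in the 6 arrays. Of 4 measured leukocyte markers 2 rose, CD68 by 1.06 (limma adjusted p = 0.00807) and LYZ by 0.57 (limma adjusted p = 0.0171), where 5.20% of all genes rose. With the mean of its probe sets in place of the brightest, LYZ was at 1.13 (limma adjusted p = 0.00577). The mean over the 4 was 7.34 to 7.49 with the EGOT gapmer and 6.90 to 6.99 with the control gapmer. CD14, at -0.06 (limma adjusted p = 0.736), and CD2, at 0.34 (limma adjusted p = 0.229), had overlapping groups. They were named after their values were seen. In mean level CD68 and LYZ were at percentiles 90.5 and 92.9 of all genes, and CD14 and CD2 at 40.1 and 34.2. The labels give HuH7 cells alone, so the list name describes the genes and not a cell type in the samples. Without control gapmer replicates 1, 2 and 3 the leukocyte calls were 1, 0 and 1, and without any 1 EGOT gapmer array they were 2. Neuron markers (3 measured) and fibroblast markers (2 measured) had 0 calls (limma), with 2 and 0 at an unadjusted p under 0.05. Of all genes 25.0% reached that level. With a variance trend or brighter genes only, 1 neuron marker fell. The part of these genes in the results for EGOT and SUMF1 was not tested.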

How the data were processed

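Gene expression was measured on 6 arrays (3 EGOT gapmer, 3 control gapmer). The deposited values are log2 expression values that the authors made with RMA, per the submitters' processing notes (software not given in the sources used here). RMA corrects background and normalizes quantiles, so a change in total RNA per cell would not be seen, and low values are compressed. Values ran from 1.05 to 14.07 and array medians from 5.08 to 5.23. The number of arrays limits the precision.

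Gene names came from the platform annotation at GEO, where 15835 of 44629 probe sets (35.5%) had 1 symbol, 0 several and 28794 none, and all named ones matched the RefSeq table by gene ID. Each gene was read at its probe set with the highest mean. EGOT gapmer minus control gapmer was tested with limma 3.58.1 in R 4.3.3 (lmFit, eBayes with 7.19 degrees of freedom, two-sided, Benjamini-Hochberg over 14812 genes, threshold 0.05). The fit was tested on simulated data. It recovered 59 of 100 simulated log2 differences of 0.5 and 99 of 100 of 1, with 8 false calls. A true difference of 0.5 could thus be missed. The simulation changed 100 genes at each size, with independent normal noise, and left the rest of the 14812 unchanged. In the deposited data 8.41% of genes passed, so the share recovered there may differ. The 95% intervals use the moderated standard error. The alternatives were 3 other normalizations, 2 other readings of the probe sets, all probe sets tested, brighter genes only, a variance trend, array weights, removal by lowess of each array's trend on log10 gene span, each array left out, the replicate number as a block, and 5 or 20 neighbours in place of 10. Gene spans and order are from RefSeq GRCh38.p14, and 10 of 10 members had a promoter window there. Named genes are the measured members, the nearest measured gene on each side and genes called within 10 on each side, the 5 and 3 genes with the highest and lowest correlation with EGOT, and up to 4 called genes, or else the one with the smallest p, of each role or marker list. The stretches along chromosome 3, the span classes and the further genes marked in the text were chosen after values were seen. The members and lists were chosen with earlier results of these data known.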

Additional observations from a re-analysis of the deposited data

How the results depend on the processing

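EGOT kept its direction in 16 of 16 alternatives (-1.92 to -1.67) and passed in 15. It was too dim for the test of brighter genes only. Replicate numbers did not pair the arrays (correlations of same-numbered arrays' deviations -0.0307, -0.0540 and 0.0394). With the number as a replicate block EGOT was at -1.76 (limma adjusted p = 0.0543), and 0 neighbours, 0 of all genes, 0 genes next to EGOT and 0 of chromosome 3 passed by limma. At an unadjusted p under 0.05 these were 1, 3438, 4 and 198. Without 1 array EGOT ran from -1.92 to -1.67, and the calls were 0 among the neighbours, 9 to 579 among all genes, 0 next to EGOT and 1 to 43 on chromosome 3. In the same order, calls were 2 of 3, 2547 of 7406 (34.4%), 4 of 7 and 139 of 407 genes tested with brighter genes only, and of the full numbers 0, 67, 0 and 7 with all probe sets tested, and 0, 712, 0 and 47 with the span trend removed. With a variance trend they were 2513 among all genes, 3 next to EGOT and 147 on chromosome 3. With 20 neighbours on each side 3 passed. More tests enter the adjustment with all probe sets, and the standard error of SUMF1 was 0.115 there, beside 0.106 over the named genes. Fewer samples enter the fits without 1 array. There the calls over all genes were 156 to 579 without 1 EGOT gapmer array and 9 to 58 without 1 control gapmer array. The cause of these differences was not tested. CNTN4, CNTN6 and CRBN passed in 0 alternatives (limma). Their sign was kept in 15 of 16, 13 of 16 and 16 of 17. Low signal limits CNTN4 and CNTN6.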
